A study of Mus musculus with 6 samples.

Results

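Autophagy is the process by which a cell encloses part of its own content in a double membrane, the autophagosome, and delivers it to the lysosome. The 39 genes described here encode its machinery and the proteins that select mitochondria for it (mitophagy). They were chosen by symbol for their textbook role, with earlier results of these data known. All 39 were found among the 13595 genes of the deposited table, and all 39 passed the filter on low values, a normalized read count of at least 1 in at least 3 libraries, as 12568 genes did.

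The cells were primary CD31-positive cells, selected on an endothelial surface protein, from livers of C57BL6/J mice, stated to be 4 weeks old, and grown in culture. Every culture analysed received 100 µM indoxyl sulfate, a tryptophan metabolite that activates the aryl hydrocarbon receptor (AHR), together with hypoxia and nutrient deprivation for 6 hours. The groups differ by labelled sex alone, with 3 libraries labelled male and 3 labelled female (replicates 4, 5 and 6 of each). The effect of indoxyl sulfate, hypoxia or nutrient deprivation on these genes was therefore not measured, and DMSO-treated cells were not analysed here. The labels do not say whether replicates are mice, isolations or wells, so the errors and p-values may describe technical spread.

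In outline, the ULK kinase complex starts autophagy when nutrients or energy run low. A class III PI3-kinase complex then marks the forming membrane, ATG9 and ATG2 supply lipid, and a ubiquitin-like conjugation system attaches ATG8 proteins (LC3 and GABARAP) to it. Cargo receptors such as p62 bind ATG8 proteins and bring in aggregates or organelles. BNIP3 and its relative NIX sit on mitochondria as such receptors, and their genes are known targets of hypoxia-inducible factor (HIF). In endothelial cells autophagy is known to respond to shear stress, hypoxia and starvation.

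The libraries held between 22303270 and 31189363 reads, and each library labelled male was deeper than each labelled female. Xist followed the labels (0.124 to 0.458 in the libraries labelled male, 234 to 324 in those labelled female). Y-linked genes were read under both labels. In the libraries labelled female, Ddx3y (48.5 to 57.7) and Uty (22.2 to 27.7) overlapped with the libraries labelled male (47.2 to 76.3 and 23.7 to 32.0). Eif2s3y (29.4 to 30.2 against 55.3 to 61.2) and Kdm5d (17.6 to 20.8 against 30.7 to 37.5) were lower there without overlap, but well above 0. Whether the libraries labelled female hold cells of both sexes was not tested, and directions below rest on the labels as given. Cell type markers also moved with the labels. The summed normalized read count of 10 endothelial markers was 2292 to 2424 in the libraries labelled male and 1217 to 1271 in those labelled female. Of the 10, 8 were called lower and 1, Eng, higher. Erg, counted among the 8, passed the filter only through the libraries labelled male (0.57 to 1.99 in those labelled female). Pecam1, which encodes CD31, was at 391 to 423 against 73.5 to 74.5 (log2 fold change -2.44), and the median over the 10 was -1.88. The 8 smooth muscle and pericyte markers summed to 260.9 to 384.0 against 2621 to 3339. Of these, 5 were higher (Acta2, Tagln, Myh11, Cnn1 and Des) and 3 lower (Pdgfrb, Rgs5 and Cspg4). The 7 listed fibroblast and stellate cell markers summed to 2628 to 3354 against 942.6 to 955.1. Col1a1, Col1a2, Col3a1, Dcn and Pdgfra were lower, while Lum passed the filter only through the libraries labelled male and Reln did not pass it. The 7 sinusoidal endothelial markers summed to 490.0 to 528.8 against 7.65 to 9.11, nearly all of it Lyve1 (470 to 513 against 4.37 to 5.48). Stab1 was lower too, and Stab2, Oit3, Mrc1, Clec4g and Fcgr2b were near 0 under both labels. Clec4g was at 0 in every library labelled male and Fcgr2b in every library labelled female. The 5 mesothelial markers summed to 424.1 to 518.3 against 457.4 to 469.4, with Msln higher and Krt19 lower. Upk3b, at 0 in the libraries labelled male, and Wt1 passed the filter only through those labelled female. Macrophage markers summed to 7.30 to 9.57 against 11.8 to 14.1 (2 of 2 tested higher, with Emr1 at 0 throughout, Marco at 0 in the libraries labelled male and Cd5l in those labelled female). Hepatocyte markers summed to 0.871 to 1.11 against 0.166 to 0.190, with Ttr at 0 in the libraries labelled female. The 1 listed lymphocyte marker, Ptprc, was at 0 in those labelled male and reached at most 0.332. The part of these marker differences, and of depth, in the results below was not tested. In such bulk RNA, fewer cells of a type and less RNA per cell cannot be told apart.

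The autophagy genes moved in different directions between the groups. In the libraries labelled female, transcripts of the mitophagy receptors Bnip3 and Bnip3l were lower, those of the initiation genes Rb1cc1 and Ulk2 were higher, and the gene for the main cargo receptor, Sqstm1, was higher. Of the 39 genes, 27 had a limma adjusted p under 0.05, which is 69.2% where 69.3% of all genes tested passed. Of these, 12 were higher (34.6% of all genes) and 15 lower (34.6% of all genes) in the libraries labelled female. The share called thus stood at the background of this contrast. The median log2 fold change of the 39 was -0.13, against 0.01 over all genes tested, and the median absolute value was 0.34 against 0.46. A log2 fold change of 1 or more in size was reached by 3 called genes (7.69%, against 20.6% of all genes): Rb1cc1 and Ulk2, which were higher (8.51% of all genes), and Bnip3, which was lower (12.1% of all genes). One of 0.6 or more was reached by 8 (20.5%, against 38.8%). The 3 libraries of each label did not overlap for 30 of the 39 (76.9%, against 74.1%). Fold changes are on the log2(normalized read count + 1) scale, labelled female minus labelled male, and values per library are normalized read counts.

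**Figure D1:**
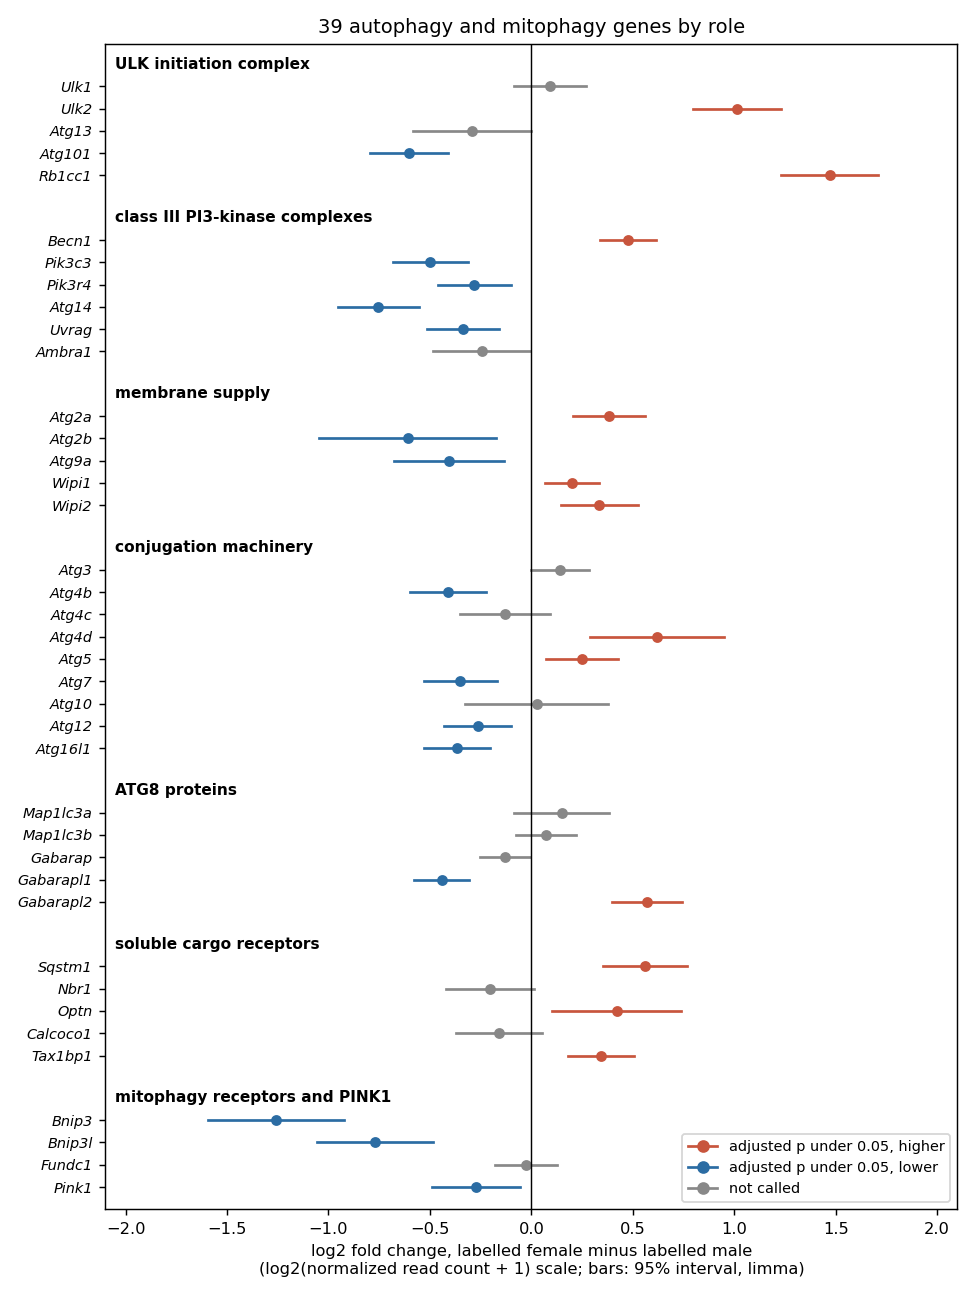
Log2 fold change of each of the 39 genes (horizontal axis, log2(normalized read count + 1) scale, labelled female minus labelled male) with its 95% interval from limma, grouped by role. Points to the right of 0 are higher in the libraries labelled female. Rb1cc1 (1.47) stands farthest to the right and Bnip3 (-1.26) farthest to the left, and most other genes lie within 0.6 of 0.

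**Figure D2:**
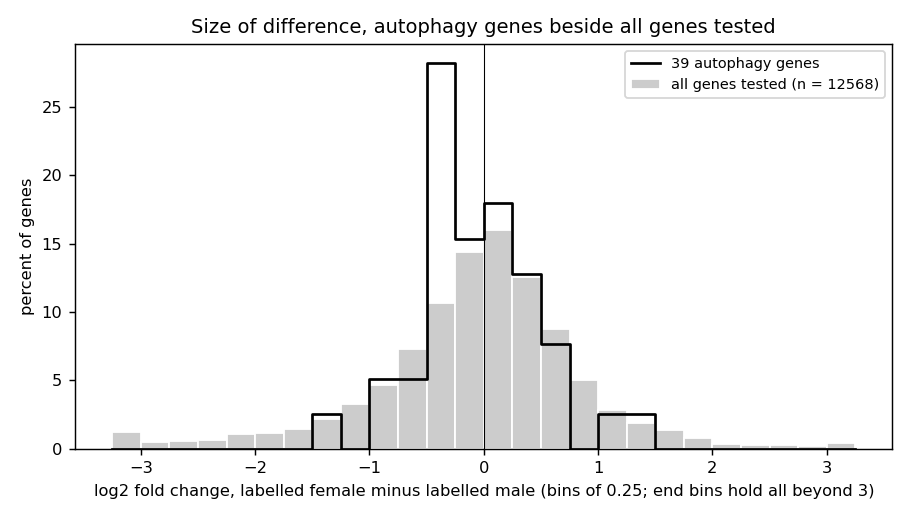
Percent of genes in each bin of log2 fold change, for all genes tested (grey bars) and the 39 autophagy and mitophagy genes (line). The 39 lie within the bins between -1.5 and 1.5, and the end bins, which hold genes beyond 3 in size, contain none of them.

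The members of the initiation complex differed in direction. Of its 5 genes, 2 rose, 1 fell and 2 did not pass the test, where 34.6% of all genes were called in each direction. Rb1cc1 (chromosome 1), which encodes the FIP200 scaffold of the complex, was at 74.7, 79.1 and 59.1 in male 4, 5 and 6 and at 193, 193 and 206 in female 4, 5 and 6. Every library labelled female was above every library labelled male. Rb1cc1 had the largest difference of the 39 genes, a log2 fold change of 1.47 (± 0.10 SE; adjusted p 5.49e-06 by limma). Under a correction for GC content and length it was 1.098, smaller in size than that of Bnip3 (-1.425). Of the 50-base stretches in the longest coding transcript of Rb1cc1, 8.48% also occur in a transcript of Gm13961.

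Ulk2 and Ulk1 encode the related kinases at the head of the pathway. Ulk2 (chromosome 11) was at 43.6, 36.1 and 35.8 in the libraries labelled male and 73.4, 77.7 and 84.4 in those labelled female, a log2 fold change of 1.01 (± 0.09 SE; adjusted p 2.56e-05 by limma). Ulk1 (chromosome 5) was at 83.6, 70.9 and 70.4 against 78.9, 80.2 and 80.1. Its groups overlapped because male 4 stood above all libraries labelled female, and the log2 fold change of 0.09 (95% interval -0.09 to 0.27) did not pass. Without male 4, Ulk1 passed as higher (0.17, limma adjusted p 0.00925), and Ulk2 stood at 1.10. Ulk1 stood at 0.05 without male 5 and at 0.05 without male 6. Ulk2 was under 1 without male 5 (0.97), male 6 (0.96) or female 6 (0.96) and under a correction for GC content and length (0.90), while its call held.

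Among their partners, Atg101 (chromosome 15), which stabilises ATG13, was at 29.9, 33.3 and 35.3 against 20.8, 21.7 and 21.2. The groups did not overlap, and the log2 fold change was -0.60 (± 0.08 SE; adjusted p 0.00027 by limma). Atg13, the adaptor that links the kinase to FIP200, was at 84.8 in male 4 but 59.9 and 60.9 in male 5 and 6, against 53.7 to 57.4 in the libraries labelled female (log2 fold change -0.29, limma adjusted p 0.0678). Atg13 passed without male 5 (-0.38) or without male 6 (-0.37), and its value was -0.13 without male 4. With all libraries, Atg13 was also called lower by DESeq2 (-0.33, DESeq2 adjusted p 0.0457).

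For Ulk2 a sequence before the transcription start is shown, as it is the initiation gene with the largest difference that has an entry in the promoter table. The 250 bases are from RefSeq, build GRCm38.p6, chr11:61855093-61855342, minus strand, printed 5′ to 3′ in the direction of the gene. Capitals mark matches to GCGTG, the core of the AHR binding site, and TGACNNNGC, the core of the antioxidant response element, on either strand.
Ulk2: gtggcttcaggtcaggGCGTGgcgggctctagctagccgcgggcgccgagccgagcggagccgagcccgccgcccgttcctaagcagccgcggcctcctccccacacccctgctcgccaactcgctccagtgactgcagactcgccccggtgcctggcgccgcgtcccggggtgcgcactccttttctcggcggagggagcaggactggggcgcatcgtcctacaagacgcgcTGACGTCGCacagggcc
The stretch held 1 match to each of these motifs. It held 0 matches to ACGTG, a form of the core of the hypoxia response element.

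Of the 6 class III PI3-kinase genes, 4 fell (66.7%, against 34.6% of all genes), 1 rose and 1 did not pass. Atg14 (chromosome 14), which directs the complex to the forming autophagosome, was at 44.4, 36.5 and 40.2 in the libraries labelled male and 23.9, 23.7 and 22.7 in those labelled female. Its libraries labelled female lay close together and below all labelled male, and the log2 fold change came to -0.75 (± 0.09 SE; adjusted p 9.12e-05 by limma). Becn1 (chromosome 11), the Beclin 1 subunit that ATG14 and UVRAG compete for, went the other way, at 79.5, 75.8 and 73.6 against 109, 108 and 103 (log2 fold change 0.48, SE 0.06, limma adjusted p 0.000158). Of the annotated exon bases of Becn1, 43.9% lie opposite exons of Cntd1, and the strand setting of the library is not given in the sources used here, so reads of this pair could not be told apart without it.

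The lipid kinase itself, Pik3c3 (VPS34), fell with a log2 fold change of -0.50, and its scaffold Pik3r4 (VPS15) with -0.28. Uvrag, the subunit of the complex that acts at endosomes, fell with -0.34. Ambra1, a regulator of Beclin 1, did not pass (-0.25, limma adjusted p 0.0643) but did without male 4 (-0.36). With all libraries, Ambra1 was also called lower by DESeq2 (adjusted p 0.0469) and by edgeR (adjusted p 0.0471). The call on Pik3r4 was lost without male 6 (-0.24) and without female 4 (-0.25, the limma adjusted p being 0.0522 each time).

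The 5 genes of membrane supply all passed (69.3% of all genes did), 3 higher and 2 lower. Atg2b (chromosome 12), which encodes a lipid transfer protein, was at 276 in male 4, 156 and 164 in male 5 and 6, and 124, 128 and 125 in the libraries labelled female. All 3 libraries labelled male were above, but male 4 stood far apart from the other 2. The log2 fold change was -0.61 (± 0.19 SE; adjusted p 0.0196 by limma), and without male 4 it was -0.35. The call was lost without any 1 of the libraries labelled female (-0.60 to -0.62). Its paralog Atg2a was higher, at 34.2 to 37.7 against 44.5 to 50.5 (log2 fold change 0.38).

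Wipi1 and Wipi2, which encode readers of the lipid made by the PI3-kinase, rose with log2 fold changes of 0.20 and 0.33. Atg9a, which encodes a transmembrane protein carried in vesicles, fell with -0.40. The call on Wipi1 was lost without male 5 (0.18) or male 6 (0.18). That on Atg9a was lost without female 5 (-0.38), and its value was -0.27 without male 4. Of the 50-base stretches of Atg9a, 42.3% are shared with other annotated transcripts, mainly the overlapping Gm29253, so its value is uncertain to that extent.

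The conjugation machinery showed small differences. Of 9 genes, 4 fell (44.4%, against 34.6% of all genes), 2 rose (22.2%, against 34.6%) and 3 did not pass, and none reached an absolute log2 fold change of 1. Atg5 (chromosome 10), whose product is joined to ATG12, was at 18.7, 18.5 and 19.5 against 21.7, 23.8 and 22.5, a log2 fold change of 0.25 (± 0.08 SE; adjusted p 0.0197 by limma). Its groups did not overlap, yet the call was lost without male 5 (0.23) or female 5 (0.22). Its partners in the conjugate fell, Atg12 with -0.26 and Atg16l1, which anchors the conjugate to membrane, with -0.37.

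Atg7, the E1-like activating enzyme of both conjugation reactions, fell with a log2 fold change of -0.35. The E2-like enzymes did not pass, with 0.14 for Atg3 (limma adjusted p 0.0712) and 0.03 for Atg10 (0.889), which was weakly read at 3.73 to 5.79 over all libraries. The ATG4 proteases, which trim ATG8 proteins and later free them from membrane, were divided. Atg4d (chromosome 9) was at 6.18, 4.38 and 4.73 against 9.50, 7.34 and 8.17, so every library labelled female was higher (log2 fold change 0.62, SE 0.14, limma adjusted p 0.00469). Of its exon bases, 19.3% lie opposite exons of Kri1. Atg4b fell (-0.41), and Atg4c did not pass (-0.13, 95% interval -0.35 to 0.09), its value being -0.08 without male 6 and without female 4.

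**Figure D3:**
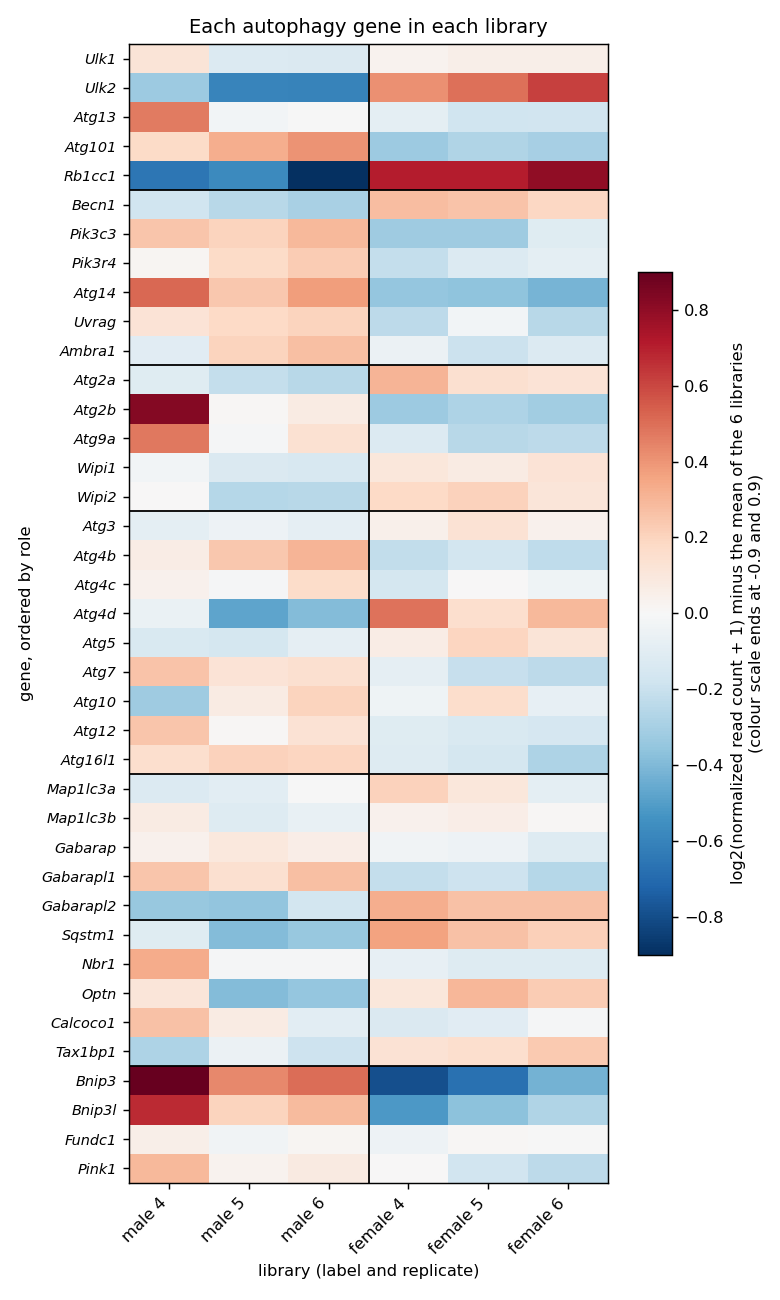
Each of the 39 genes (rows, ordered by role) in each library (columns), as log2(normalized read count + 1) minus the mean of the 6 libraries. Blocks of colour change at the line between labels for Rb1cc1, Ulk2, Bnip3 and Bnip3l, whereas for Atg2b male 4 alone is strongly coloured.

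Among the ATG8 genes, whose proteins coat the autophagosome, 1 rose, 1 fell and 3 did not pass, so that 40% were called against 69.3% of all genes. Map1lc3b (chromosome 8), whose product LC3B is the usual marker of autophagosomes, was at 168, 147 and 152 against 164, 167 and 160. Male 4 lay above all libraries labelled female and male 5 and 6 below them, and the log2 fold change was 0.07 (95% interval -0.08 to 0.22, limma adjusted p 0.338). Without male 4, Map1lc3b passed as higher (0.13, limma adjusted p 0.0257). Its value was 0.03 without male 5 and 0.06 without male 6. Map1lc3a did not pass either (0.15, limma adjusted p 0.223), and ranged from 0.08 without female 4 to 0.23 without female 6.

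In the GABARAP branch, Gabarapl1 fell, from 208 to 227 in the libraries labelled male to 157 to 166 in those labelled female (log2 fold change -0.44, SE 0.06). Gabarapl2 rose, from 35.6 to 40.8 to 55.2 to 57.7 (log2 fold change 0.57, SE 0.07). Gabarap itself was at 257 to 267 against 231 to 244, without overlap but short of the threshold (-0.13, limma adjusted p 0.0582). It passed as lower without male 4 (-0.14) and with median-ratio size factors (-0.14). Of the 50-base stretches of Gabarapl2, 17.0% recur in pseudogene transcripts, and 28.3% of the exon bases of Gabarapl1 lie opposite 1700101I11Rik. Per kilobase of the longest coding transcript, mean levels in the libraries labelled male ran from Gabarap at 193.5 (SD 3.77, n = 3) through Gabarapl1 at 121 (SD 5.59), Map1lc3b at 59.2 (SD 4.08) and Gabarapl2 at 22.4 (SD 1.71) to Map1lc3a at 13.5 (SD 0.656). In the libraries labelled female the order was the same, at 177, 88.7, 62.2, 33.4 and 15.1.

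Of the 5 soluble cargo receptors, 3 rose, none fell and 2 did not pass, a called share of 60% against 69.3% of all genes. Sqstm1 (chromosome 11), which encodes p62 and is also a target of the oxidative stress factor NRF2, was at 1433, 1178 and 1223 in the libraries labelled male and 1992, 1856 and 1793 in those labelled female. The groups lay apart, with a log2 fold change of 0.56 (± 0.09 SE; adjusted p 0.000663 by limma). The protein p62 is itself degraded by autophagy, so its amount is not given by its transcript. Of its exon bases, 17.3% lie opposite exons of Mrnip.

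Tax1bp1 and Optn, receptors for ubiquitin-marked cargo, rose with log2 fold changes of 0.34 and 0.42. The Optn groups overlapped, male 4 at 22.2 lying just above female 4 at 22.1, and its call was lost without male 5 (0.33), male 6 (0.35), female 5 (0.38) or female 6 (0.41). Nbr1, a receptor related to p62, was at 285 in male 4, 224 in male 5 and 6, and 208 to 215 in the libraries labelled female, and did not pass (-0.20, limma adjusted p 0.087). Its value without male 4 was -0.09. Calcoco1, a receptor for endoplasmic reticulum, did not pass (-0.16, limma adjusted p 0.153) but did without male 6 (-0.25), and its value was -0.07 without male 4.

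**Figure D4:**
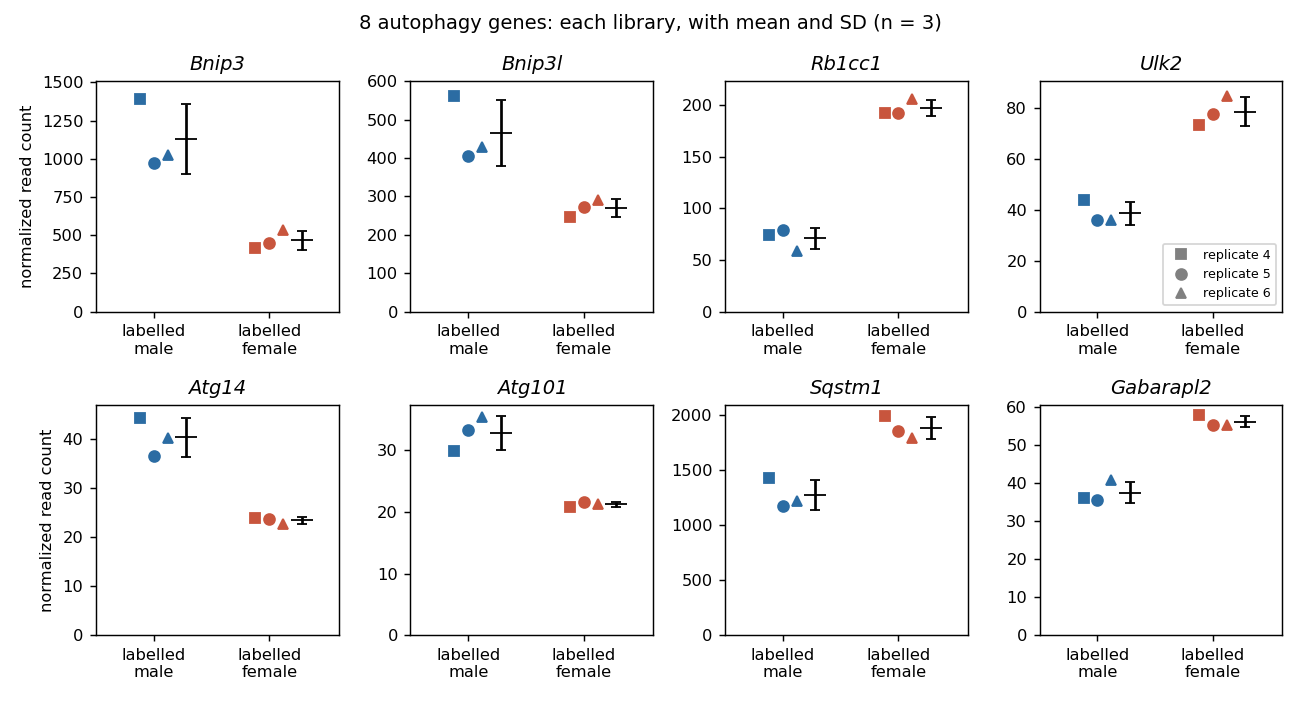
Normalized read count (vertical axis, from 0) of 8 of the 39 genes in each library, with replicate 4 as a square, 5 as a circle and 6 as a triangle, and the mean and SD (n = 3) beside them. The 8 genes shown were selected, and in each the libraries labelled male and female lie apart, as they do for 74.1% of all genes tested.

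The mitophagy group held 3 genes that fell, none that rose and 1 that did not pass, a called share of 75% against 69.3% of all genes (34.6% lower). Bnip3 (chromosome 7), which encodes a receptor in the outer mitochondrial membrane, was at 1390, 971 and 1022 in male 4, 5 and 6 and at 415, 452 and 535 in female 4, 5 and 6. The highest library labelled female was below the lowest labelled male. The mean was 1127 ± 229 (SD, n = 3) against 467 ± 61.5 (SD, n = 3), and the log2 fold change came to -1.26 (± 0.15 SE; adjusted p 9.3e-05 by limma). Bnip3l (chromosome 14), which encodes NIX, was at 563, 404 and 429 against 246, 272 and 291, again without overlap (log2 fold change -0.77, SE 0.12, limma adjusted p 0.000637). In both genes male 4 was the library farthest from those labelled female, and without it the values were -1.10 and -0.63. Shared sequence limits both: 21.9% of the 50-base stretches of Bnip3 recur in other annotated transcripts such as Gm16439, 22.3% of its exon bases lie opposite Gm45507, and 23.4% of those of Bnip3l recur in Bnip3l-ps.

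Pink1 (chromosome 4) encodes the kinase that accumulates on damaged mitochondria. It was at 60.5, 50.3 and 52.3 against 49.3, 43.6 and 41.7, a small decrease with narrowly separate groups (log2 fold change -0.27, SE 0.09, limma adjusted p 0.0312). The call was lost without male 6 (-0.30), female 5 (-0.25) or female 6 (-0.22), and under quantile normalization (-0.22). Fundc1, a receptor on mitochondria, was at 31.8 to 33.9 against 31.6 to 32.8 and did not pass (-0.03, 95% interval -0.18 to 0.13).

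The promoter stretch of Bnip3 is shown because its hypoxia response element is a textbook example. The 250 bases before the start are from RefSeq, build GRCm38.p6, chr7:138909507-138909756, minus strand, printed 5′ to 3′ in the direction of the gene. Capitals mark matches on either strand to ACGTG and to GCGTG.
Bnip3: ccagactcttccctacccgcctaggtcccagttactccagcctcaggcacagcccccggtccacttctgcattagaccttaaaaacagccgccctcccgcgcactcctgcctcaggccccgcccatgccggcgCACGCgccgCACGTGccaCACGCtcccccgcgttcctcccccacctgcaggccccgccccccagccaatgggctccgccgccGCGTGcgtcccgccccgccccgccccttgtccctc
It held 2 overlapping matches to ACGTG, which form a palindrome read on both strands, and 3 matches to GCGTG. Windows of 250 bases before to 50 after the start were listed for 32 of the 39 genes. Atg12, Atg16l1, Becn1, Bnip3l, Map1lc3a, Pik3c3 and Rb1cc1 had no entry. ACGTG occurred on either strand in at least 1 window of 15 of the 32 genes (46.9%), against 28.9% of the 10159 genes of the deposited table with a window and 19.6% of all 32851 windows. GCGTG occurred in 22 of 32 (68.8%), against 55.5% and 32.4%. TGACNNNGC occurred in 4 (12.5%), against 17.0% and 12.4%, and TCACGTGA, a form of the element bound by the lysosomal factor TFEB, in Atg3 alone (3.1%, against 2.1% and 1.0%). These are matches of letters and not shown to be bound.

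HIF target genes outside autophagy, a list also chosen with earlier results known, moved with Bnip3 and Bnip3l. Of 20, 19 were called lower (34.6% of all genes were) and 0 were higher. Car9, counted among the 19, passed the filter only through the libraries labelled male (0.75 to 1.41 in those labelled female). The median log2 fold change of the 20 was -1.94, so that most fell further than Bnip3. Their summed normalized read count was 23560 to 27490 in the libraries labelled male and 9471 to 10280 in those labelled female. For 12 of the 20 (60%, against 41.2% of all genes), male 4 was the library labelled male farthest from those labelled female, and for 7 (35%, against 42.9%) it was the nearest. The part of HIF activity in the level of Bnip3 and Bnip3l was not tested.

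Per kilobase of the longest coding transcript, the most abundant of the 39 differed between labels. In the libraries labelled male Bnip3 stood highest at 642 (SD 130, n = 3), ahead of Sqstm1 at 478 (SD 50.9, n = 3). In those labelled female Sqstm1 stood highest at 703 (SD 38.0, n = 3), ahead of Bnip3 at 266 (SD 35.1, n = 3). Atg4d was the least abundant under both labels, at 0.857 (SD 0.160) and 1.40 (SD 0.184). These ranks depend on the division by length. By mean normalized read count Sqstm1 was highest under both labels, at 1278 against 1127 for Bnip3 in the libraries labelled male. Atg10 was then lowest under both, at 4.92 and 4.97 against 5.10 and 8.34 for Atg4d.

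Ratios between related genes within a library do not depend on how libraries are scaled. For 3 pairs chosen after their values were seen, the ratio of reads was compared. Ulk2 to Ulk1 was 0.522, 0.509 and 0.509 in male 4, 5 and 6 and 0.931, 0.968 and 1.05 in female 4, 5 and 6. Gabarapl2 to Gabarapl1 was 0.161, 0.171 and 0.180 against 0.357, 0.333 and 0.352. Bnip3 to Bnip3l was 2.47, 2.40 and 2.38 against 1.69, 1.66 and 1.84. In each pair the groups lay apart, and male 4 stood close to male 5 and 6 although its Bnip3 and Bnip3l levels did not. As the pairs were chosen for this, no test is given.

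**Figure D5:**
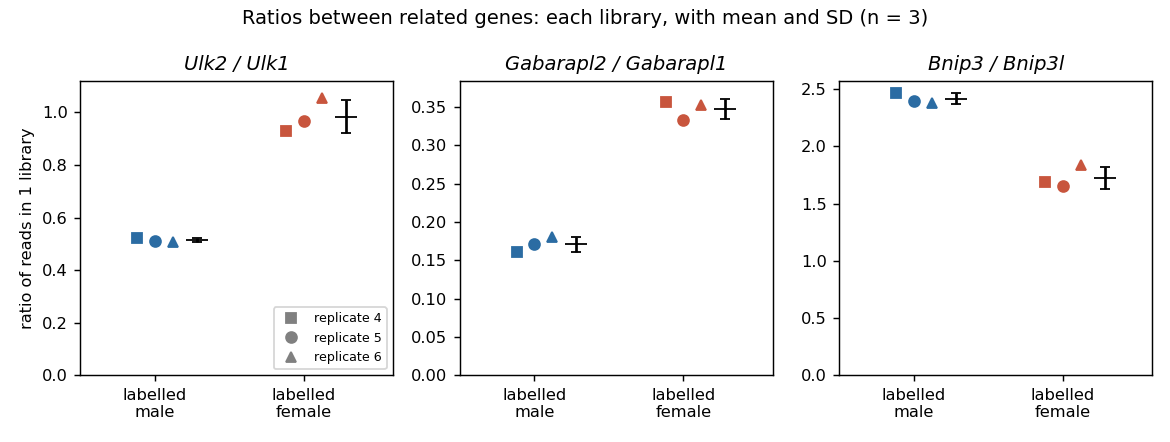
Ratio of the reads of 2 related genes in each library (vertical axis, from 0), with replicate 4 as a square, 5 as a circle and 6 as a triangle, and the mean and SD (n = 3). The Ulk2 to Ulk1 ratio is near 0.51 in the libraries labelled male and 0.93 to 1.05 in those labelled female.

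Spread among the libraries labelled male was larger with male 4 than without it. The median coefficient of variation of the 39 genes was 8.41% in the libraries labelled male, 3.21% in male 5 and 6 alone, and 4.51% in those labelled female. The value for male 5 and 6 rests on fewer libraries, so it is not a like measure beside the others. No other library was left out for this measure. Male 4 was the library labelled male nearest to the mean of those labelled female for 17 of the 39 genes (43.6%, against 42.9% of all genes tested) and farthest from it for 16 (41.0%, against 41.2%). In the mitophagy group it was farthest for 4 of 4. Without male 4, 14 of the 39 genes were called higher and 17 lower, while calls over all genes rose as well, from 8704 of 12568 to 9113 of 12187 (74.8%).

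Correcting the log2 differences for GC content and transcript length, an alternative chosen after seeing the data, changed several differences. It ended the calls on Pik3r4 (-0.17), Atg9a (-0.26), Atg5 (0.16) and Pink1 (-0.05). Among the genes that stayed called, it moved Rb1cc1 to 1.098, Bnip3 to -1.425 and Atg101 to -0.42. It also moved Wipi1 to 0.30, Atg7 to -0.23, Atg16l1 to -0.24 and Tax1bp1 to 0.19. Called under it alone or with others were Ulk1 (0.25), Map1lc3a (0.47) and Map1lc3b (0.24) as higher, and Atg4c (-0.23), Nbr1 (-0.28) and Fundc1 (-0.32) as lower. Quantile normalization also placed Map1lc3b (0.17) and Atg3 (0.19) above the threshold as higher. The calls on Rb1cc1, Ulk2, Sqstm1, Bnip3 and Bnip3l held in all 15 alternatives that keep the call rule.

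Of 48 further genes of the pathway tested that are not among the 39, 3 of them listed under an older symbol, 23 were called (47.9%, against 69.3% of all genes), 15 as higher (31.2%, against 34.6%) and 8 as lower (16.7%, against 34.6%) under the female label. Their median log2 fold change was 0.02. Called differences of 1 or more in log2 size were found in 2 of them. Ncoa4, the receptor that delivers the iron store ferritin to lysosomes, was at 1470, 1300.1 and 1371 against 294, 329 and 360 (log2 fold change -2.07, SE 0.09, limma adjusted p 3.15e-07), a larger difference than in any of the 39. Foxo3, a transcription factor that induces autophagy genes, was at 194, 159 and 166 against 67.9, 70.6 and 68.4 (log2 fold change -1.31, SE 0.08, limma adjusted p 2.38e-06). In both genes the groups lay far apart. By role, to be read against 34.6% of all genes in each direction, 7 of 12 genes of autophagosome fusion with the lysosome rose and 2 fell, 5 of 10 other receptors rose and 2 fell, and 2 of 9 further core genes rose and 1 fell. Of 11 other mitophagy genes 1 rose and 2 fell, and of 6 regulators Foxo3 fell and none rose, Tfeb and Tfe3 not passing.

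The authors' deposited table gives a false discovery rate under 0.05 for 5 of the 39 genes, where 25.8% of all its genes are under 0.05. In the authors' deposited table these are Rb1cc1 (linear fold change 2.78, false discovery rate 0.035), Ulk2 (2.04, 0.00556), Atg14 (-1.72, 0.0255), Bnip3 (-2.41, 0.00096) and Bnip3l (-1.72, 0.0126). Sqstm1 has a fold change of 1.47 with 0.132 in the authors' deposited table. The sign was the same as in the limma fit for all 39 genes.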

How the data were processed

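PolyA-enriched RNA of 6 samples was sequenced from Kapa HyperPrep libraries, per the labels. The submitters' processing notes name Bowtie2, RSEM, edgeR and mm39. Roles, the annotation, the strand setting and the filter for detectable genes are not given in the sources used here. The signal deposited per library is a normalized read count: in every column 100% of values are whole multiples (within 0.001) of the smallest value above 0, which returned whole numbers of reads. Whether these were counted or are rounded RSEM estimates is not given in the sources used here. Columns were matched to samples by title, and 0 were left over. The deposited score is the authors' signed linear fold change, and their p-value and false discovery rate stand beside it, per the file headers.

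Limma 3.58.1 (R 4.3.3, eBayes with trend) was fitted to log2(value + 1) over every gene reaching 1 in 3 or more libraries, with Benjamini-Hochberg adjustment over all of them and a threshold of 0.05. edgeR 4.0.16 on the recovered reads called 8975 of 13199 genes and limma 8704 of 12568. DESeq2 1.42.0 and the other alternatives are given with the closing limits. Scripts were tested on simulated data.

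Members and gene lists were chosen with earlier results of these data known. Every member is named, with all libraries shown for calls of 0.6 or more in log2 size and for 8 genes set by role. Chromosomes, shared 50-base stretches, exon overlap and lengths come from GENCODE M21 (GRCm38) by symbol. As its build differs from the authors', it gives no coordinates here. Promoter sequences come from the RefSeq table of GRCm38.p6.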

Additional observations from a re-analysis of the deposited data

How the results depend on the processing

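Of the 27 called genes, 20 kept their call and all 27 their direction in 15 alternatives. These were median-ratio size factors, quantile normalization, a pseudocount of 0.1, no filter, a minimum of 10 reads per library, the replicate block, DESeq2, edgeR, a GC content and length correction chosen after seeing the data, and leaving out each library. Of the 12 genes not called, 1 stayed so in all 15. The other 7 called genes (Pik3r4, Atg2b, Atg9a, Wipi1, Atg5, Optn and Pink1) lost it in at least 1. Leaving out a library gave 9 to 14 genes called higher and 12 to 17 lower (60.3% to 74.8% of all genes were called), with medians from -0.17 to -0.13. A required log2 size of 1 by construction left 2 higher and 1 lower, and 0 higher and 2 lower among the other autophagy genes. Quantile normalization moved the median of the 39 to -0.056 and the calls to 14 higher and 14 lower, and over all genes the median to 0.08 and the calls to 4934 higher and 3974 lower. The signs of 3 uncalled genes changed: Fundc1 under quantile normalization (0.038), Calcoco1 under the GC correction (0.026) and Atg10 under the GC correction (-0.20), without male 4 (-0.13) and without female 5 (-0.045), its range with a library left out being -0.13 to 0.13. The cause was not tested. Replicate numbers did not pair the libraries (correlations of deviations -0.09, -0.03 and -0.17 for 4, 5 and 6). With the replicate block 11 genes were higher and 16 lower, Atg13 passing and Atg5 not (66.2% of all genes were called). DESeq2 called 12 of the 39 higher and 17 lower (65.8% of all genes were called). edgeR called 12 higher and 16 lower (68% of all genes). Atg10 and Atg4d were the most weakly read, at 90 to 229 reads per library.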
